A study of Mus musculus with 36 samples.

Results

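Thrombomodulin (TM), the endothelial protein C receptor (EPCR), the protease activated receptors (PARs) and the receptors for sphingosine-1-phosphate (S1P) were followed at the mRNA level in mouse dendritic cells (DCs). The 7 genes were chosen by name and are Thbd (thrombomodulin), Procr (EPCR), F2r (PAR-1), F2rl2 (PAR-3), F2rl3 (PAR-4), S1pr1 and S1pr3, out of 19938 genes with a transcript cluster of their own on the array. Each of the 7 had 1 such cluster, and all 7 were tested.

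DCs were raised from bone marrow of young adult Balb/c mice in the presence of GM-CSF, the granulocyte-macrophage growth factor, until day 6, and some cultures received 200 nM soluble human TM (sTM, the extracellular part of thrombomodulin) from day 4. On day 6 a rat antibody to TM and magnetic microbeads separated TM+ from TM- DCs, and Affymetrix Mouse Gene 1.0 ST arrays measured their RNA to learn how the fractions differ and whether sTM alters expression. There were 4 arrays of TM+ and 4 of TM- DCs from untreated cultures (experiments 3 and 4), 6 arrays of each fraction after sTM (experiments 2, 3 and 4), and 8 untreated and 8 sTM-treated arrays of unsorted DCs (experiments 1, 2 and 3). All groups thus share the mouse strain, the GM-CSF and the day of harvest, and experiment 2 has no untreated sorted DCs. Arrays that share a group and an experiment are labelled biological replicates, with no word on separate cultures or mice. The p-values thus measure the spread between arrays within and across these few experiments, not between a known number of cultures or mice.

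On endothelium, thrombomodulin binds thrombin and turns it from a clotting protease into an activator of protein C, and EPCR presents protein C to this complex. Thrombin cleaves PAR-1 and PAR-4, receptors coupled to G proteins, while activated protein C bound to EPCR also signals through PAR-1. PAR-3 is a thrombin substrate known in mouse platelets as a cofactor for the cleavage of PAR-4. S1P receptors respond to a lipid made inside cells: S1PR1 couples to Gi and guides the egress of lymphocytes, S1PR3 couples to several G proteins, and PAR-1 signalling in DCs has been linked to S1PR3.

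The sequence just upstream of the annotated start is shown for Procr and S1pr3, whose transcripts moved together in the sort, and for the neighbouring genes F2r and F2rl2, of which the second had the largest log2 fold change of the 3 PARs measured. On chromosome 13 the RefSeq annotation has F2rl1 (PAR-2), F2r, Iqgap2 and F2rl2 in this order of start coordinates, which does not show whether they overlap. RefSeq promoter entries (build GRCm38.p6) were found for 5 of the 7 genes (Procr, F2r, F2rl2, F2rl3 and S1pr3) and not used here for Thbd and S1pr1. Capitals mark matches on either strand to CACCC (bound by KLF factors), TGANTCA (AP-1) and GGGCGG (SP1). For Procr, the bases that lie inside the annotated gene were left off, so 158 bases are shown.
Procr, chr2:155750967-155751124, plus strand: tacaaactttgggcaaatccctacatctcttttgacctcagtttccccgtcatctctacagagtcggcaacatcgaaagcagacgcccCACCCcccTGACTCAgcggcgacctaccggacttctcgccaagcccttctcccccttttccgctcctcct
S1pr3, chr13:51408368-51408617, plus strand: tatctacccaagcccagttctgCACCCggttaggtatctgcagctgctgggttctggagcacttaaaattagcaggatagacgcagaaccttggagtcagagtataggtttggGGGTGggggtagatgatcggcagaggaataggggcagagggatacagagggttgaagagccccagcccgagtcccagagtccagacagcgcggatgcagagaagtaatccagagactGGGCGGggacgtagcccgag
F2r, chr13:95618467-95618716, minus strand: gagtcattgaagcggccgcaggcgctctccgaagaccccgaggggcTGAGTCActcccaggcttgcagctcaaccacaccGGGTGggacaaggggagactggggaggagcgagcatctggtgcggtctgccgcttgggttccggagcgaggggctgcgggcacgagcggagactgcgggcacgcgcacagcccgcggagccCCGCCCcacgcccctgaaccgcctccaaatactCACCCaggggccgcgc
F2rl2, chr13:95696670-95696919, plus strand: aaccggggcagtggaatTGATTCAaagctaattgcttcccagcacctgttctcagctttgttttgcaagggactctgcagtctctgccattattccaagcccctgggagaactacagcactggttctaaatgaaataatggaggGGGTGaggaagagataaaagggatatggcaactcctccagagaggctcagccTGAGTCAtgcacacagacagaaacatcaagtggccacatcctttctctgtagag

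An AP-1 match stood 154 bases before the start of Procr as the promoter table places it, 204 before that of F2r, and 233 and 54 before that of F2rl2. The 250 bases before S1pr3 and F2rl3 held none. Of all 32851 RefSeq promoters, 6.7% hold such a match in their 250 bases. The CACCC motif was found in all 5 sequences and in 52.0% of all promoters, and the SP1 motif in those of F2r and S1pr3 (49 and 20 bases before the start) and in 32.7% of all promoters. Neither TTCNNNGAA (STAT, 7.0% of all promoters) nor TATAAA (12.4%) was found in the 5 sequences. None of the motifs overlapped another, and a match is a description of the letters only.

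Levels are log2 values of the deposited intensities, and differences between them are log2 fold changes from limma with experiment as a random block. The threshold for a call was an adjusted p (Benjamini-Hochberg, over all 19938 genes) below 0.05. The number of arrays, and of experiments behind them, limits the precision. Arrays of the same group and experiment correlated with r between 0.940 and 0.998 (median 0.990) over all genes. For arrays of the same group from different experiments r was between 0.941 and 0.983 (median 0.962). The array medians over the 19938 genes ran from 6.88 to 7.15. For a low-signal mark, the 1027 olfactory receptor genes, which are transcribed mainly in the nose, had a median level of 4.68 and a 95th percentile of 6.32. Procr, F2r, F2rl2, F2rl3, S1pr1 and S1pr3 were above this percentile on all 36 arrays, and Thbd on 11 of 36.

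DC markers other than Flt3 had mean levels above the low-signal mark of 6.32 in both fractions. Flt3 was at 6.16 in TM+ DCs and 6.33 in TM- DCs. Itgax, which encodes CD11c, had a mean level of 12.18 in TM+ DCs and 11.89 in TM- DCs, and 4 of the 7 DC markers were called higher in TM+ DCs and 2 lower (the DC transcription factor Zbtb46 by -0.38 and the migration receptor Ccr7 by -1.41). The marker counts of this paragraph stand beside 18.6% of all genes called higher and 18.7% called lower. Of monocyte and macrophage markers, 4 of 6 were higher in TM+ DCs, led by Ccr2 (4.04). Of neutrophil markers, 6 of 7 were higher, led by S100a9 (2.16), S100a8 (2.15) and Ltf (1.92). Also higher were 3 of 7 markers of mast cells, basophils and eosinophils (with Kit lower, at -0.77), and 1 of 4 of megakaryocytes and platelets. The summed level (log2 of the summed intensities) of the neutrophil markers ranged from 10.02 to 13.51 in TM+ DCs, from 9.56 to 11.11 in TM- DCs and from 9.95 to 11.98 in unsorted DCs. That of the endothelial markers ranged from 10.19 to 11.03, 10.61 to 11.65 and 10.43 to 11.38, with 1 of 7 called lower (Kdr, -0.99). The mean levels over all arrays were 9.46 for Kdr, 8.88 for Pecam1, 7.95 for Vwf, 6.95 for Tie1, 6.77 for Cldn5, 5.97 for Cdh5 and 4.70 for Emcn. Of 6 stromal markers, 4 were lower in TM+ DCs, with Dcn at -1.73, and none of 6 T and B cell markers was called. RMA values have no 0. The part of these cells in the results below was not tested, and in a bulk sample fewer cells of a type and less RNA per cell cannot be told apart.

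Procr and S1pr3 were about 4-fold lower in TM+ than in TM- DCs, while F2rl2, S1pr1 and F2r were higher by 1.84-fold, 1.53-fold and 1.32-fold. Thbd and F2rl3 were not called. Of the 7 genes, 3 were thus called higher and 2 lower, where 37.3% of all genes were called (18.6% higher and 18.7% lower). Procr, F2rl2, S1pr1 and S1pr3 had been named by the study from these same arrays, so their calls are not independent evidence. The study also reported Thbd from these arrays. Among the PARs it described F2rl2 alone as altered, while F2r was also called here. After each array was centred on its 75th percentile, the median of all genes moved from -0.08 to -0.20 and the calls over all genes from 3709 higher and 3729 lower to 2941 and 9040. The direction of all 7 genes was the same on that scale and after quantile normalization.

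**Figure D1:**
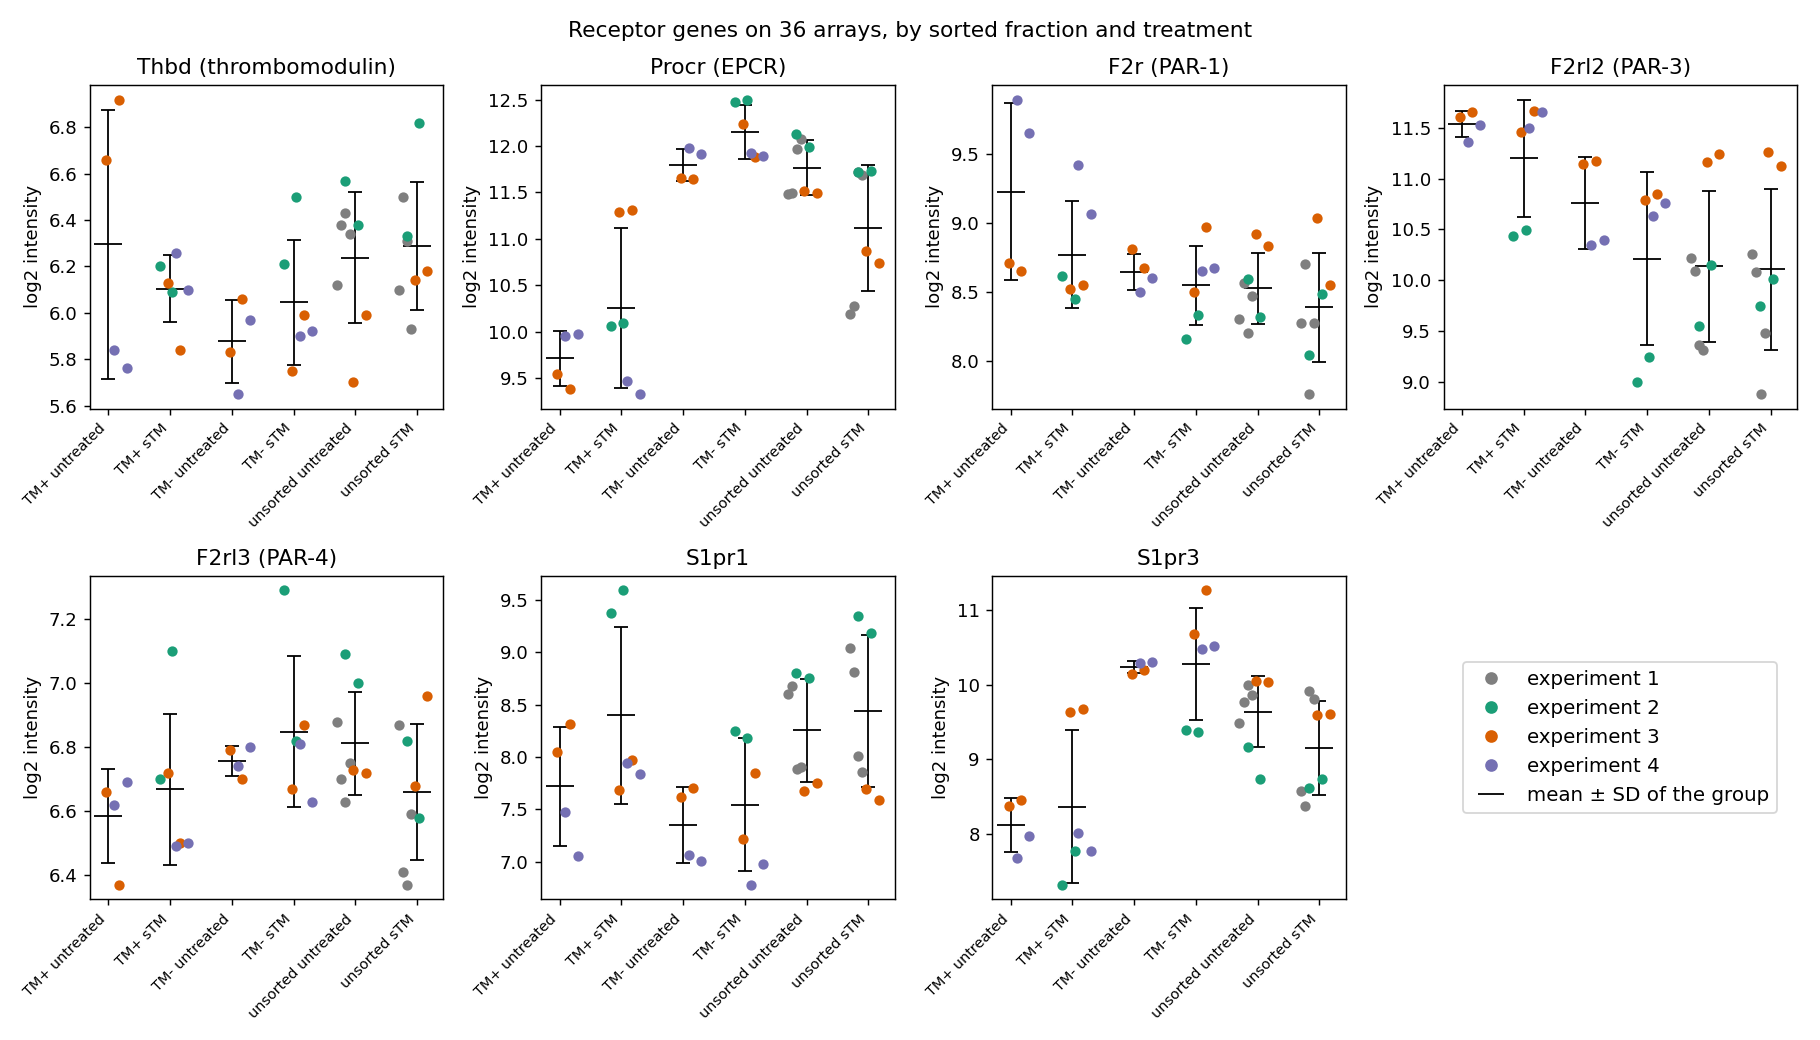
Log2 intensity of the 7 genes (y axes, a scale for each gene) on 36 arrays by group (x axes); each point is an array, coloured by experiment, and bars give the mean ± SD of the group. Procr and S1pr3 lie low on the TM+ arrays, with the TM+ arrays of sTM-treated cultures of experiment 3 (orange) above the other TM+ arrays, and F2r is high on the 4 TM+ arrays of experiment 4 (purple).

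Thbd encodes the protein on which the cells were sorted. In untreated cultures the TM+ arrays had levels of 6.66, 6.92, 5.84 and 5.76 (the first 2 from experiment 3) and the TM- arrays 5.83, 6.06, 5.65 and 5.97. In sTM-treated cultures the lowest, median and highest levels were 5.84, 6.12 and 6.26 in TM+ DCs and 5.75, 5.95 and 6.50 in TM- DCs. Only the pair of untreated TM+ arrays of experiment 3 lay above all 10 TM- arrays, and the fractions overlapped otherwise. The log2 fold change was 0.24 (standard error 0.12, 95% interval -0.01 to 0.49, adjusted p = 0.120), and TM+ DCs were higher in 13 of the 20 comparisons of a TM+ with a TM- array of the same experiment and culture, in which each array enters 2 times. Within experiments, the difference of the means in untreated cultures was 0.84 in experiment 3 and -0.01 in experiment 4, and in sTM-treated cultures -0.21, 0.11 and 0.28 in experiments 2, 3 and 4. Thbd exceeded the 95th percentile of olfactory receptor genes on 2 TM+, 1 TM- and 8 unsorted arrays, so that most values of this cluster lay in the range of low signal and it offers no check of the sort. It was called higher in TM+ DCs after quantile normalization (0.31, adjusted p = 0.039), with array weights (0.50, adjusted p = 0.000106), without experiment 4 (0.40, adjusted p = 0.0361) and without the second untreated TM+ array of experiment 4 (0.32, adjusted p = 0.0441).

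EPCR, encoded by Procr, is the receptor that presents protein C for activation and binds the activated form. In untreated cultures the TM+ arrays had Procr levels of 9.54 and 9.38 in experiment 3 and 9.95 and 9.98 in experiment 4. The TM- arrays had 11.66, 11.64, 11.98 and 11.91. From sTM-treated cultures the lowest, median and highest levels were 9.33, 10.08 and 11.31 in TM+ DCs and 11.88, 12.09 and 12.50 in TM- DCs. Every TM+ array was below every TM- array, as found for 0.973% of all genes, with a further 2.20% apart in the opposite direction (3.17% in all). The log2 fold change was -1.99 (standard error 0.21, adjusted p = 2.09e-07), 3.97-fold lower in TM+ DCs. It was -2.09 in untreated (adjusted p = 7.06e-05) and -1.89 in sTM-treated cultures (adjusted p = 2.48e-05). All 20 comparisons within experiment and culture were lower in TM+ DCs, with differences from -2.60 to -0.57, where 11.2% of all genes went one way in all 20 and 4.58% were lower. The smallest differences came from the sTM-treated cultures of experiment 3, whose means were 11.30 and 12.06 (-0.76), against -2.41 and -2.51 in experiments 2 and 4. Leaving out any array, any experiment or changing the model, filter or scaling kept the value between -2.22 and -1.86.

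Of the 3 PARs measured (PAR-2 was not analysed here), F2rl2 (PAR-3) had the largest log2 fold change between the fractions over all cultures, although in the untreated cultures of experiment 4 F2r differed more (1.22 against 1.07). Its levels in untreated cultures were 11.61, 11.65, 11.36 and 11.53 in TM+ DCs and 11.14, 11.17, 10.35 and 10.39 in TM- DCs. With sTM the lowest, median and highest were 10.43, 11.48 and 11.66 in TM+ DCs and 9.0, 10.69 and 10.85 in TM- DCs. The fractions overlapped over all experiments, since experiment 2 had low levels in both, but in every experiment and culture both TM+ arrays were above both TM- arrays. The log2 fold change was 0.88 (standard error 0.15, adjusted p = 8.55e-05), and all 20 comparisons were higher in TM+ DCs by 0.44 to 1.49, where 6.59% of all genes were higher in all 20. It was called in untreated (0.78, adjusted p = 0.0190) and in sTM-treated cultures (0.99, adjusted p = 0.000738). The call in untreated cultures was lost without experiment 4 (0.48, adjusted p = 0.69), without either TM- array of that experiment (0.67 and 0.68, adjusted p = 0.082 and 0.074), without its second TM+ array (0.74, adjusted p = 0.0578), with no experiment term (adjusted p = 0.256) and with a replicate block by experiment and array number (adjusted p = 0.0839).

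F2r encodes PAR-1, the main thrombin receptor on human platelets and a receptor for activated protein C. In untreated cultures its levels were 8.71, 8.65, 9.89 and 9.65 in TM+ DCs and 8.81, 8.67, 8.50 and 8.60 in TM- DCs. The sTM-treated arrays had lowest, median and highest levels of 8.45, 8.58 and 9.42 in TM+ DCs and 8.16, 8.57 and 8.97 in TM- DCs. The 4 TM+ arrays of experiment 4 were above all 10 TM- arrays, and the other 6 overlapped with them. F2r was called higher in TM+ DCs (log2 fold change 0.40, standard error 0.13, adjusted p = 0.0228), with 15 of 20 comparisons within experiment and culture higher. The differences within experiment 4 were 1.22 in untreated and 0.58 in sTM-treated cultures, against 0.29 in experiment 2 and -0.06 and -0.20 in experiment 3. Without experiment 4 the value was -0.01 (adjusted p = 0.982), and without any 1 of the 4 untreated arrays of experiment 4 it lay from 0.31 to 0.36 with an adjusted p from 0.0574 to 0.0742. The call was also lost without experiment 2 (adjusted p = 0.0705), with no experiment term (adjusted p = 0.085) and after quantile normalization (adjusted p = 0.0534). Neither culture passed the test alone (0.58, adjusted p = 0.0505 in untreated and 0.22, adjusted p = 0.324 in sTM-treated cultures).

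F2rl3 (PAR-4), a thrombin receptor of mouse platelets, had levels of 6.66, 6.37, 6.62 and 6.69 in TM+ DCs of untreated cultures and 6.79, 6.70, 6.74 and 6.80 in the TM- DCs. With sTM it ranged from 6.49 to 7.10 in TM+ DCs (median 6.60) and from 6.63 to 7.29 in TM- DCs (median 6.82). The untreated fractions did not overlap and the sTM-treated ones did. It was not called (-0.17, standard error 0.08, 95% interval -0.33 to -0.02, adjusted p = 0.0763), with 18 of 20 comparisons lower in TM+ DCs. Centring on the 75th percentile (-0.29, adjusted p = 0.00993), array weights (-0.21, adjusted p = 0.0058), leaving out experiment 2 (-0.18, adjusted p = 0.0368) and leaving out the second TM- or TM+ array of that experiment (-0.20 and -0.21, adjusted p = 0.0482 and 0.03) brought it past the threshold. These values stand beside a median log2 fold change of -0.08 over all genes (-0.20 when centred) and -0.12 over the olfactory receptor genes. The mean level of F2rl3 over all arrays was 6.73, near the low-signal mark of 6.32. 

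S1pr3 followed the pattern of Procr. Its levels in untreated cultures were 8.37, 8.45, 7.68 and 7.97 in TM+ DCs and 10.14, 10.20, 10.29 and 10.30 in TM- DCs. In sTM-treated cultures the lowest, median and highest were 7.32, 7.89 and 9.67 in TM+ DCs and 9.37, 10.49 and 11.26 in TM- DCs. The only overlap came from the pair of TM+ arrays of experiment 3 with sTM (9.63 and 9.67), which exceeded the TM- arrays of experiment 2 (9.39 and 9.37). S1pr3 was 4.05-fold lower in TM+ DCs, at -2.02 on the log2 scale (standard error 0.20, adjusted p = 8.70e-08). It was -2.12 in untreated cultures (adjusted p = 3.49e-05) and -1.92 in sTM-treated cultures (adjusted p = 1.17e-05). All 20 comparisons were lower, with differences from -2.75 to -1.0, where 4.58% of all genes were lower in all 20. Within experiments the differences were -1.76 and -2.47 in untreated cultures of experiments 3 and 4 and -1.84, -1.32 and -2.60 in sTM-treated cultures of experiments 2, 3 and 4. No alternative ended the call, with values from -2.35 to -1.67.

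S1pr1 went the other way. Untreated TM+ DCs had levels of 8.05, 8.31, 7.47 and 7.05 and untreated TM- DCs 7.62, 7.70, 7.06 and 7.01. With sTM the lowest, median and highest were 7.68, 7.95 and 9.59 in TM+ DCs and 6.78, 7.54 and 8.25 in TM- DCs. The experiments differed in level, with the pair of TM+ arrays of experiment 2 highest (9.37 and 9.59), and the fractions overlapped over all experiments. S1pr1 was called higher in TM+ DCs (0.61, standard error 0.17, adjusted p = 0.00669), with 18 of 20 comparisons within experiment and culture higher and differences from -0.17 to 1.41. It was called in sTM-treated cultures (0.85, adjusted p = 0.00616) but not in untreated ones (0.37, 95% interval -0.17 to 0.91, adjusted p = 0.359), and the difference of the effects, the interaction, was 0.48 (95% interval -0.22 to 1.18, adjusted p = 0.918). The overall call was lost with no experiment term (adjusted p = 0.111) and without experiment 4 (0.65, adjusted p = 0.055).

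By culture, 3 of the 7 genes (Procr, F2rl2 and S1pr3) were called in untreated and 4 (these and S1pr1) in sTM-treated cultures, where 21.1% and 24.0% of all genes were called. With array weights, all 7 were called in untreated cultures, where the calls over all 19938 genes also rose from 4205 to 9922. Among the S1P receptors outside the 7, S1pr4, a receptor of lymphoid and myeloid cells, was called higher in TM+ DCs (0.51, standard error 0.07, adjusted p = 1.14e-05) in all 20 comparisons, and S1pr2, which couples to G12/13, was called lower (-0.31, standard error 0.08, adjusted p = 0.00306) in 17 of 20. Over all genes, 6.59% were higher in all 20 comparisons. S1pr5 was not called (-0.08, adjusted p = 0.313).

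**Figure D2:**
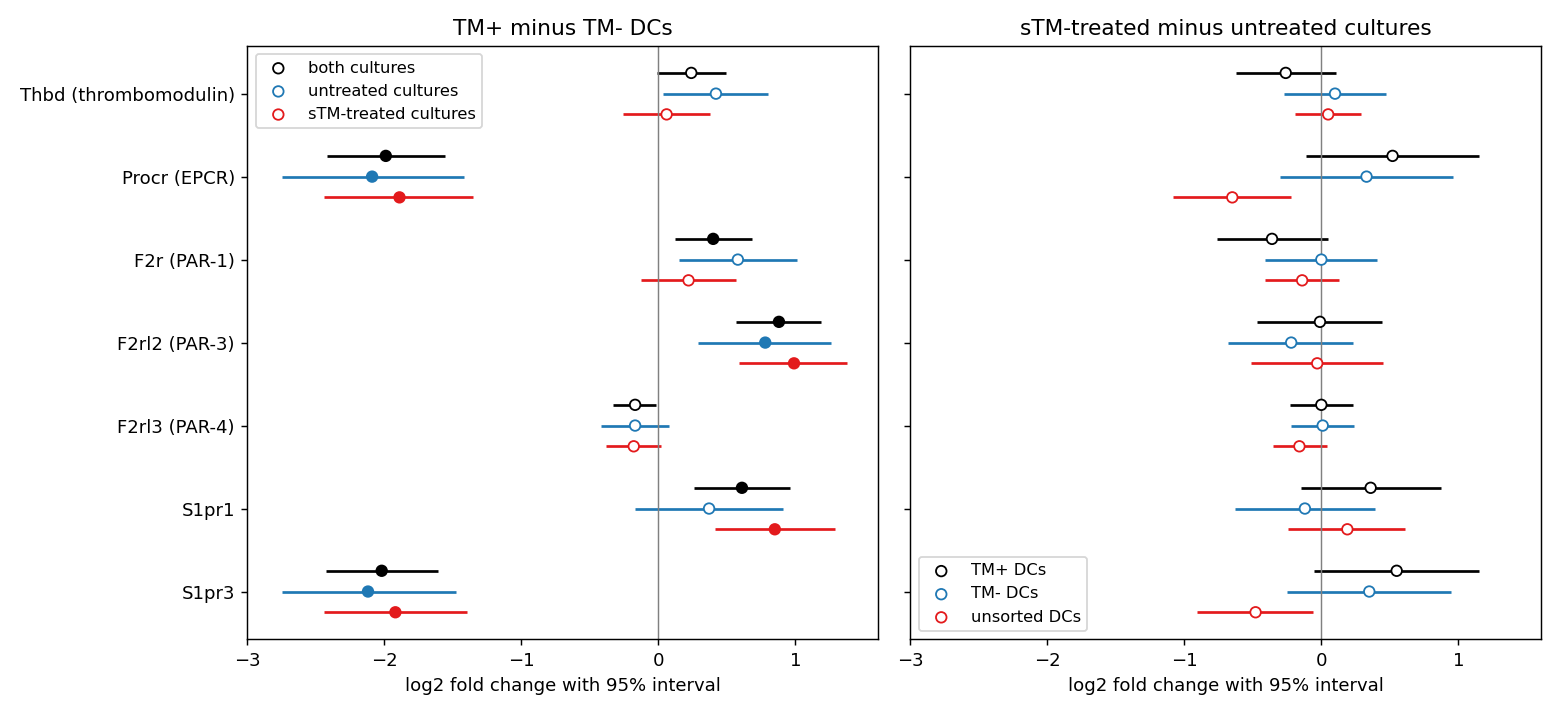
Log2 fold changes (x axes, with 95% intervals) of the 7 genes (y axis) between TM+ and TM- DCs in all, untreated and sTM-treated cultures (left), and between sTM-treated and untreated cultures in TM+, TM- and unsorted DCs (right); filled points passed the adjusted threshold and open points did not. Procr and S1pr3 stand near -2 on the left, and no point on the right is filled.

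The effect of sTM on the same genes was compared within each fraction. None of the 7 was called over both fractions, in TM+ DCs, in TM- DCs or for the interaction, where 0.0150%, 0.853%, 0% and 0.0100% of all genes were called. At an unadjusted limma p under 0.05, 1607 genes (8.06%) passed over both fractions, 2026 (10.2%) in TM+ DCs and 722 (3.62%) in TM- DCs. S1pr3 was the only one of the 7 among the first of these, at 0.45 (standard error 0.21, adjusted p = 0.588). The estimates of Procr were 0.52 in TM+ DCs (95% interval -0.11 to 1.15) and 0.33 in TM- DCs (-0.30 to 0.96), and those of S1pr3 0.55 (-0.05 to 1.15) and 0.35 (-0.25 to 0.95). For Thbd they were -0.26 (-0.62 to 0.11) in TM+ DCs and 0.10 (-0.27 to 0.47) in TM- DCs. These intervals include 0 and also changes of the size of 0.5 in at least 1 fraction for every gene named here.

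The experiments disagreed on sTM in TM+ DCs. Procr had a mean of 9.46 without and 11.30 with sTM in experiment 3, a difference of 1.84, and of 9.96 and 9.40 in experiment 4, a difference of -0.56. In both experiments the 2 treated and the 2 untreated TM+ arrays did not overlap, on opposite sides. S1pr3 differed by 1.23 and 0.07 in TM+ DCs and by 0.79 and 0.19 in TM- DCs of experiments 3 and 4, S1pr1 by -0.36 and 0.63 in TM+ DCs, and Thbd by -0.81 and 0.38 in TM+ DCs. Without experiment 4, Procr (1.38, adjusted p = 0.025) was called higher and Thbd (-0.85, adjusted p = 0.0119) lower with sTM in TM+ DCs, and Procr also over both fractions (1.08, adjusted p = 0.0238). Without experiment 3 the estimates of Procr and Thbd in TM+ DCs were -0.47 and 0.28. With 2 arrays of each kind in an experiment, the differences within experiments were not tested on their own. Neutrophil markers moved with sTM in TM+ DCs, with 4 of 7 called (Ltf at -2.19, S100a9 at -1.91, Camp at -1.28 and Elane at -0.58), as did 1 of 4 megakaryocyte and platelet markers (Ppbp, higher by 1.03), and their part in these values was not tested. Over all genes, 0.853% were called for sTM in TM+ DCs.

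**Figure D3:**
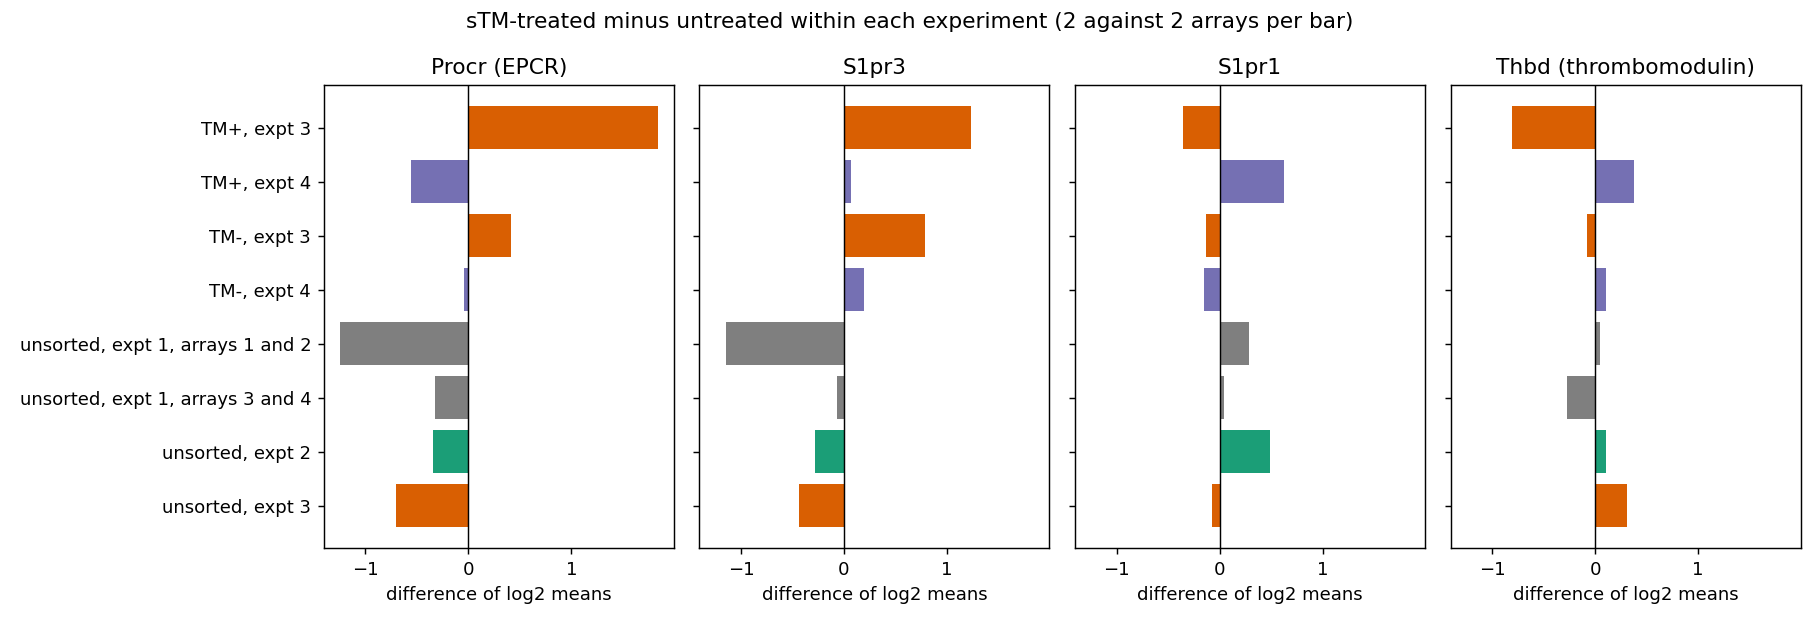
Difference of mean log2 intensity between sTM-treated and untreated arrays (x axes) for Procr, S1pr3, S1pr1 and Thbd within each fraction and experiment (y axis), with 2 against 2 arrays per bar, no error bars, and colours by experiment. Procr stands at 1.84 in TM+ DCs of experiment 3 and below 0 in all 4 bars of unsorted DCs.

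In unsorted DCs, which were fitted apart, no gene of the 19938 was called for sTM (0%), with 940 (4.71%) at an unadjusted limma p under 0.05, Procr and S1pr3 among them. Procr had levels of 11.48, 11.75 and 12.13 (lowest, median, highest) in untreated and 10.19, 11.28 and 11.73 in sTM-treated cultures. Its estimate was -0.65 (standard error 0.21, limma adjusted p = 0.907). S1pr3 had 8.74, 9.81 and 10.05 in untreated and 8.38, 9.16 and 9.91 in sTM-treated cultures, with an estimate of -0.48 (standard error 0.20, limma adjusted p = 0.999). Both were thus lower on average with sTM, with overlapping arrays, and neither passed the adjusted test. Within experiments 1, 2 and 3 the differences were -0.78, -0.34 and -0.70 for Procr and -0.61, -0.28 and -0.44 for S1pr3. In experiment 1 they rested mostly on arrays 1 and 2 of each treatment (-1.25 and -1.15), against -0.32 and -0.07 for arrays 3 and 4. The other 5 genes had estimates from -0.16 (F2rl3) to 0.19 (S1pr1).

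Unsorted DCs could be set beside their fractions in experiments 2 and 3, although no source used here says whether both sets went through normalization together. In the untreated cultures of experiment 3, unsorted Procr was at 11.51, between 9.46 in TM+ and 11.65 in TM- DCs and nearer to the latter, and unsorted S1pr3 at 10.04, between 8.41 and 10.17. The sTM-treated cultures of experiment 2 gave the same order (11.72 between 10.08 and 12.49, and 8.67 between 7.55 and 9.38). With sTM in experiment 3, however, the unsorted levels of Procr (10.81) and S1pr3 (9.60) were below those of both fractions (11.30 and 12.06, and 9.65 and 10.96). F2rl2 and S1pr1 of unsorted DCs lay between the fractions in all 3 comparisons, and Thbd in none.

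The order of the 6 groups by mean level was alike for Procr and S1pr3. The groups hold different experiments, so that an order over groups also carries the differences between experiments. For both it ran from TM- DCs with sTM (12.15 ± 0.29 and 10.28 ± 0.75, SD, n = 6) through untreated TM- DCs (11.80 ± 0.17 and 10.23 ± 0.08, n = 4), untreated unsorted DCs (11.77 ± 0.30 and 9.64 ± 0.47, n = 8), unsorted DCs with sTM (11.12 ± 0.67 and 9.15 ± 0.63, n = 8) and TM+ DCs with sTM (10.26 ± 0.86 and 8.36 ± 1.02, n = 6) to untreated TM+ DCs (9.71 ± 0.30 and 8.12 ± 0.36, n = 4). Neighbours in this order overlapped except untreated TM- and untreated unsorted DCs for S1pr3. For F2rl2 the order began with untreated TM+ DCs (11.54 ± 0.13) and ended with unsorted DCs with sTM (10.11 ± 0.79), although within experiments unsorted DCs lay between the fractions (9.88 between 9.12 and 10.46 in experiment 2, and 11.19 between 10.82 and 11.56 with sTM and 11.20 between 11.15 and 11.63 without in experiment 3). For F2r it ran from untreated TM+ DCs (9.22 ± 0.64) to unsorted DCs with sTM (8.39 ± 0.40). Unsorted DCs with sTM had the highest mean of S1pr1 (8.44 ± 0.73) and untreated TM- DCs the lowest (7.35 ± 0.36), while in each matched comparison unsorted DCs were below TM+ DCs (9.26 against 9.48 in experiment 2, and 7.64 against 7.82 with sTM and 7.71 against 8.18 without in experiment 3). Thbd ran from 6.30 ± 0.58 in untreated TM+ DCs to 5.88 ± 0.18 in untreated TM- DCs, and F2rl3 from 6.85 ± 0.23 in TM- DCs with sTM to 6.59 ± 0.14 in untreated TM+ DCs. In these 5 genes all neighbours overlapped.

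Among the arrays, Procr and S1pr3 correlated with r = 0.85 over the 20 sorted arrays and 0.37 over the 16 unsorted arrays. After the mean of each experiment and set of arrays was taken off, r was 0.96 in both. Over the 10 TM+ arrays alone it was 0.74, and 0.90 with experiment means taken off, and over the 10 TM- arrays -0.57, and 0.46 with them taken off. With the same subtraction, F2rl2 and S1pr1 correlated with Procr at -0.91 and -0.87 in sorted and at -0.62 and -0.78 in unsorted arrays. The points share experiments, treatments and the array normalization, and the values are descriptions without a test.

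**Figure D4:**
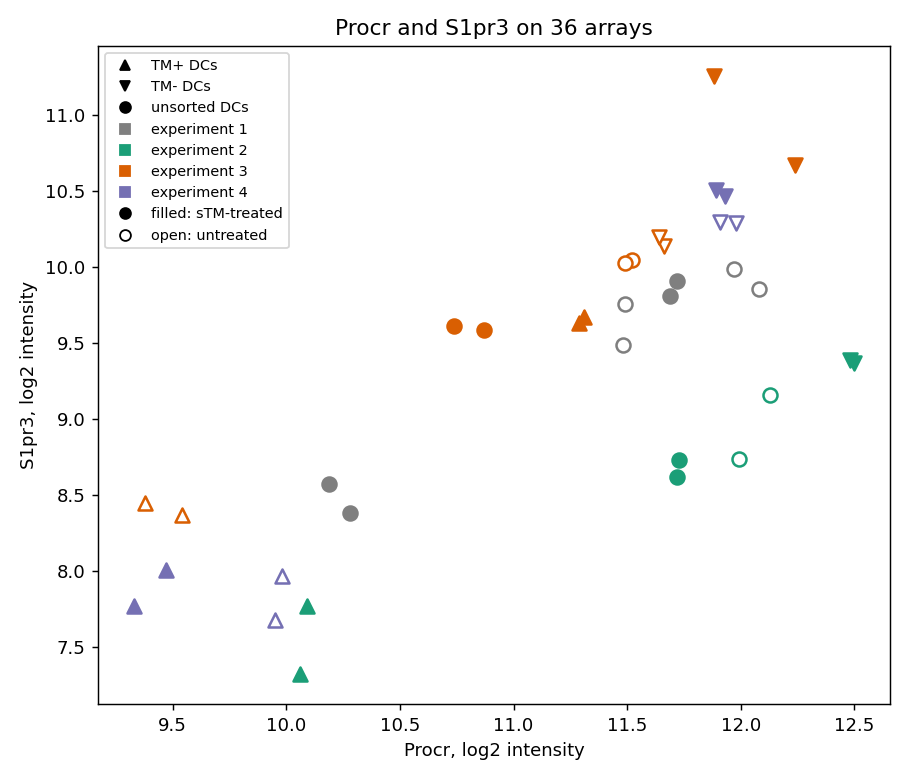
S1pr3 (y axis) against Procr (x axis), both as log2 intensity, on 36 arrays by fraction (marker), experiment (colour) and treatment (filled with sTM, open without). The TM+ arrays lie at the lower left and the TM- arrays at the upper right, with the TM+ arrays of experiment 3 with sTM (11.29 and 11.31 for Procr) among the unsorted arrays.

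By correlation over the 20 sorted arrays, the genes most like each of the 5 called ones were sought among all genes tested. For Procr these were Me1 (malic enzyme, r = 0.98, and 0.86 over unsorted arrays), Blnk (a B cell linker, 0.97 and 0.62) and Clmp (an adhesion molecule, 0.97 and 0.69), with B3galt2 the most opposed (-0.96 and -0.75). For S1pr3 they were Glis3, Ago3 and Zhx2 (each 0.98, and 0.71, 0.90 and 0.89 over unsorted arrays), with Pts, an enzyme of tetrahydrobiopterin synthesis, opposed (-0.95 and -0.71). F2rl2 was most like Emc2, Treml2 and Tfb1m (0.98, 0.97 and 0.96, and 0.90, 0.94 and 0.90 over unsorted arrays), and least like Gss (-0.96 and -0.39). The neighbours of S1pr1 were Plcl2, Eif3h and Aldh2 (0.95, 0.93 and 0.93, and 0.73, 0.75 and 0.50), with Rnf24 opposed (-0.95 and -0.86). F2r was most like Myb, a transcription factor of progenitors, Nubp1 and Rgs12 (0.94, 0.94 and 0.93) and opposed to Ctsl (-0.94), but over unsorted arrays these values were 0.37, 0.21, 0.11 and -0.22.

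The genes around these receptors were taken from lists written from general knowledge, whose counts stand beside 18.6% called higher and 18.7% called lower over all genes. Of the relatives of thrombomodulin, which share its C-type lectin fold, Cd93 was higher in TM+ DCs (log2 fold change 2.18, adjusted p = 2.77e-07), Clec14a was lower (-0.23, adjusted p = 0.0287) and Cd248 was not called (-0.04, adjusted p = 0.763). Clec14a had mean levels of 5.28 in TM+ and 5.53 in TM- DCs, below the low-signal mark of 6.32. The olfactory receptor genes behind that mark had a median log2 fold change of -0.12. Of 9 genes of thrombin, protein C and their cofactors, 2 were higher and 1 lower (median -0.06, against -0.08 over all genes). These were F5 (factor V, the cofactor of factor Xa, 1.82, adjusted p = 1.63e-08), Pros1 (protein S, the cofactor of activated protein C, 1.37, adjusted p = 8.72e-08) and F3 (tissue factor, which starts clotting, -2.46, adjusted p = 5.28e-05). Neither F2 (prothrombin, -0.11, adjusted p = 0.424) nor Proc (protein C, -0.15, adjusted p = 0.0759) was called. F5 was also higher with sTM in TM+ DCs (1.38, adjusted p = 0.00885). Of 5 inhibitors of clotting and of activated protein C, Tfpi, an inhibitor of tissue factor with factor VIIa and of factor Xa, was higher (0.31, adjusted p = 0.00231) and A2m lower (-0.19, adjusted p = 0.0459), with a list median of -0.03. A2m had mean levels of 6.14 in TM+ and 6.34 in TM- DCs, at the low-signal mark.

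Of 11 other proteases that cleave PARs, 2 were higher and 1 lower in TM+ DCs, with a median of 0.00 after rounding. Mmp13, a collagenase, was lower (-2.33, adjusted p = 1.16e-06), and the neutrophil proteases Elane (0.51, adjusted p = 1.48e-05) and Prtn3 (0.35, adjusted p = 0.0341) were higher. Elane, also on the neutrophil list, was lower with sTM in TM+ DCs (-0.58, adjusted p = 0.0142). Among 28 G proteins, arrestins and regulators of receptor signalling, 11 were higher and 4 lower (median 0.11). The largest differences were those of Rgs18 (2.20, adjusted p = 1.66e-05) and Rgs2 (2.16, adjusted p = 1.18e-06), which speed the hydrolysis of GTP by G proteins, Gna15 (a Gq subunit of blood cells, 1.85, adjusted p = 4.72e-11) and Plcb2 (a phospholipase downstream of Gq, 1.63, adjusted p = 2.05e-08). Grk5, a receptor kinase, was higher in TM+ DCs (0.84, adjusted p = 1.19e-06) and higher with sTM within them (0.64, adjusted p = 0.0403).

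Of 23 genes of S1P synthesis, breakdown and transport, 8 were higher and 3 lower in TM+ DCs (median -0.02). Plpp3, a phosphatase that removes phosphate from extracellular S1P, was 7.0-fold lower (-2.81, adjusted p = 5.01e-08), and Sgpl1, the lyase that degrades S1P, was lower (-0.78, adjusted p = 0.000191). The ceramidase gene Acer3 (1.05, adjusted p = 1.61e-06) and the ceramide synthase gene Cers5 (0.86, adjusted p = 0.000104) were higher. Of 12 genes listed around EPCR and activated protein C, not all of them direct partners, 3 were higher and 3 lower (median -0.12). Among them were Itgb3, an integrin beta chain, at -1.70 (adjusted p = 3.21e-06), Cav1 (caveolin-1) at -0.76 (adjusted p = 4.47e-05), Hmgb1 at 0.56 (adjusted p = 0.0136) and Cav2 at 0.46 (adjusted p = 0.00857). Of 15 genes known to regulate Thbd or S1pr1, 4 were higher and 5 lower (median -0.02). They were led by Il1b (a cytokine that lowers thrombomodulin on endothelium, -1.18, adjusted p = 0.000164), Rara (a retinoic acid receptor, 0.90, adjusted p = 3.22e-09), Foxo1 (-0.86, adjusted p = 5.67e-06) and Klf2 (a transcription factor that induces both genes, 0.85, adjusted p = 0.000334). None of the genes of these lists was called for sTM over both fractions, in TM- DCs, for the interaction or in unsorted DCs.

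**Figure D5:**
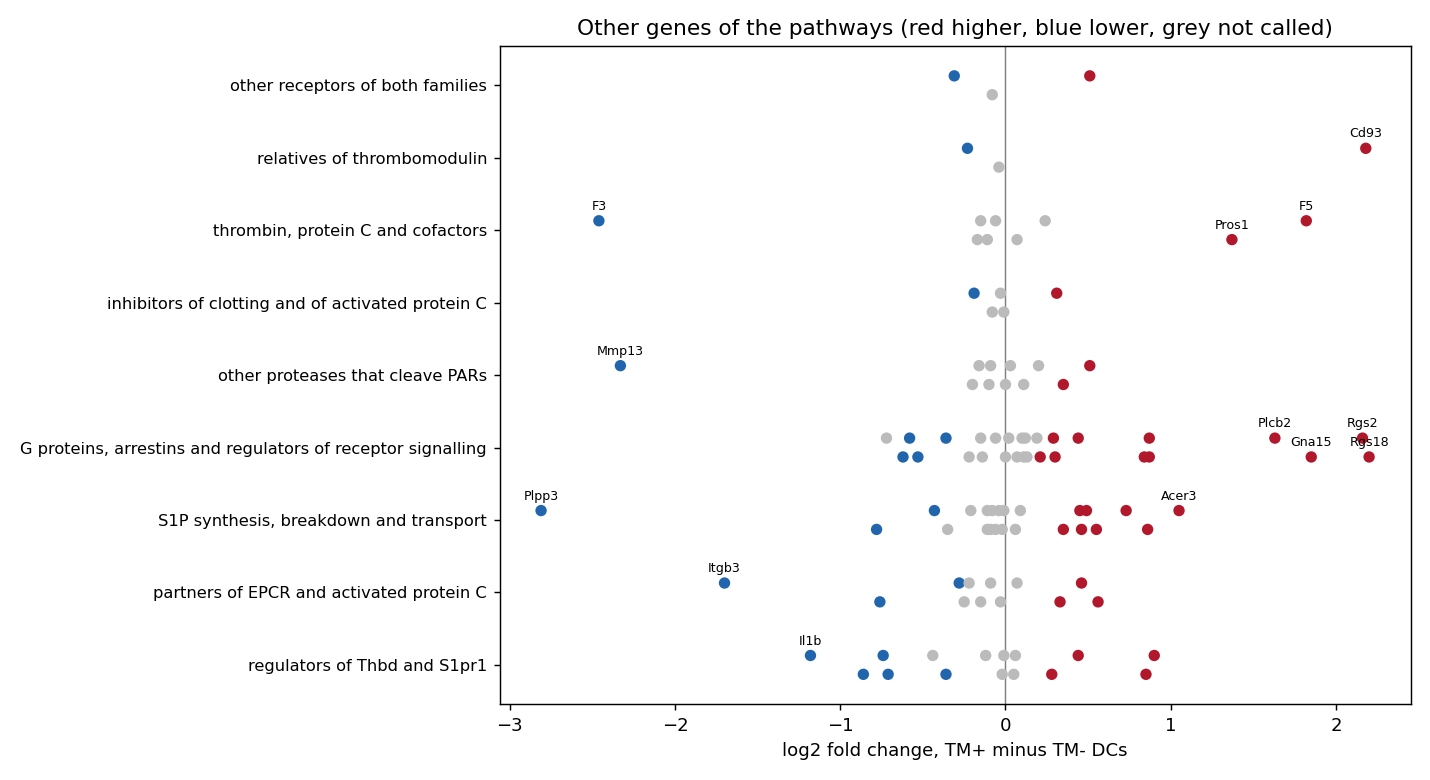
Log2 fold change between TM+ and TM- DCs (x axis) of the other genes of the pathways, by list (y axis); each point is a gene, red for called higher, blue for called lower and grey for not called, and genes beyond 1 in size are named. In each list called genes lie on both sides of 0, with F3, Mmp13 and Plpp3 below -2 and Cd93, Rgs2 and Rgs18 above 2.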

How the data were processed

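The deposited values were intensities on a linear scale for 35556 transcript clusters on 36 Affymetrix Mouse Gene 1.0 ST arrays, which the authors had background-corrected, normalized and summarized with RMA in APT software. RMA gives arrays normalized together 1 distribution of probe intensities before they are summarized, so that a shift of all transcripts would not be seen. The summarized values still differed between arrays, with 75th percentiles over the genes tested from 8.33 to 8.94. Values were put on the log2 scale without a filter. The platform annotation gave 21789 clusters 1 symbol, 1621 several and 12146 none; the cluster with the highest mean was used per symbol, and 19856 of 19938 such genes were matched to RefSeq by gene ID. limma 3.58.1 with statmod 1.5.0 (R 4.3.3) was fitted to the 20 sorted arrays with 4 group means, and apart to the 16 unsorted arrays, with experiment as a random block (correlation within experiments 0.396 and 0.375). TM+ was set against TM- as the average of the untreated and the sTM-treated contrast. Counts came from Python 3.11.15 and pandas 2.3.3, figures from matplotlib 3.10.9. The fits were tested on simulated data with known changes. The members, lists and tests were chosen with earlier results of these data known. Named genes were the members, whole lists of up to 4 genes, up to 4 called genes with the largest change of each longer list and any called for sTM, and per called member the 3 most and 1 least correlated genes. Of each marker list up to 3 genes were named, and of the endothelial list all. F2, Proc, Kit, Ppbp, Camp, Flt3, the further endothelial markers and, among neutrophil markers, Elane were added after their values were seen. Of the list genes, 12 were not analysed here. Alternatives were another experiment term, replicate numbers as blocks, a filter at the 25th percentile, other cluster rules, centring, quantile normalization, other variance models, and leaving out arrays or experiments.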

Additional observations from a re-analysis of the deposited data

Results flagged for a closer look

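F2rl3 had 1 array far above the rest in 2 groups of 6. In TM+ DCs with sTM the second array of experiment 2 was highest at 7.10, and in TM- DCs with sTM the first array of experiment 2 was highest at 7.29. In each, the gap to the next array was 0.63 of the whole range of the group. Of 42 groups of a gene examined, 2 stood out in this way. Chance gives about 1 in 20 for independent arrays, but these groups pool arrays of several experiments, so that rate is only a rough guide.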

How the results depend on the processing

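Of 1869 values of single genes under the alternatives, 1705 kept their direction and side of the threshold, 18 lost a call, 29 gained 1 and 117 changed sign; the cause was not tested. Procr and S1pr3 kept theirs under all 34 alternatives between TM+ and TM- DCs. With no experiment term, 3 members (5 in the report) were called between the fractions and 2 (4) in sTM-treated cultures. Over all 19938 genes the calls then fell from 3709 higher and 3729 lower to 2655 and 2172 between the fractions. In sTM-treated cultures they fell from 2311 higher and 2481 lower to 1261 and 1035. Array weights gave 7 (3) in untreated cultures and 1 (0) for sTM in TM+ DCs, Thbd at -0.55. The calls over all genes rose with them from 4205 to 9922 in untreated cultures and from 170 to 1233 for sTM in TM+ DCs. Without experiment 4, 1 member was called for sTM over both fractions and 2 in TM+ DCs. The calls over all genes then were 305 higher and 149 lower over both fractions (2 and 1 in the main fit). In TM+ DCs they were 386 higher and 251 lower (76 and 94 in the main fit). Leaving out single arrays gave from 4 to 6 called members between the fractions, 2 to 4 in untreated cultures, 4 in sTM-treated cultures and 0 for sTM and the interaction. Over all genes these fits called 3256 to 4026 higher and 2714 to 5201 lower between the fractions. In untreated cultures they called 1814 to 2965 higher and 1092 to 2003 lower. For sTM-treated cultures the counts were 1732 to 2614 higher and 1608 to 2811 lower.

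Signs changed as follows. Between the fractions, F2r was -0.01 over all and -0.06 in untreated cultures without experiment 4, and Thbd was -0.01 in untreated cultures without experiment 3, and in sTM-treated cultures -0.02 when centred on the 75th percentile, -0.05 without experiment 4 and -0.01 to 0.14 without single arrays. For sTM over both fractions, F2rl2 was 0.01 with experiment fixed, 0.05 with weights, 0.00 in the mixed model, 0.01 without experiment 2 and 0.09 without experiment 3, and F2rl3 was -0.02, -0.04 (centred), 0.00, -0.02 and -0.07, and -0.03 to 0.03 without single arrays. S1pr1 was 0.00 with experiment fixed, -0.13 with weights, 0.00 without experiment 2 and -0.10 without experiment 4, F2r was 0.01 with weights, Procr -0.24 and Thbd 0.26 without experiment 3, and Thbd -0.16 to 0.02 without single arrays. For sTM in TM+ DCs, F2rl2 was 0.12 (fixed), 0.01 (dim genes left out), 0.11 (mixed), 0.03 and 0.11 without experiments 2 and 3 and -0.08 to 0.04 without single arrays. F2rl3 was -0.03, 0.00, -0.01, -0.03 and -0.10 there, -0.01 when centred and -0.07 to 0.04 without single arrays; S1pr1 was -0.06 with weights, and Thbd 0.28 and Procr -0.47 without experiment 3. For sTM in TM- DCs, F2r was 0.04 (fixed), 0.01 (dim genes left out), 0.00 (all clusters), 0.09 (weights), 0.00 (mixed), 0.05 and 0.13 without experiments 2 and 3 and -0.13 to 0.12 without single arrays. F2rl3 was -0.02 (fixed), -0.06 (centred), -0.04 (weights), -0.01 and -0.03 without experiments 2 and 3 and -0.03 to 0.05 without single arrays; F2rl2 was 0.18 with weights and 0.07 without experiment 3, S1pr1 0.20 with no experiment term, and S1pr3 -0.07 without experiment 3. For the interaction, F2rl3 was 0.05 (centred), 0.01 (quantile), 0.09 (weights), 0.07 without experiment 4 and -0.09 to 0.06 without single arrays, F2rl2 -0.26 with weights, Thbd 0.04 and Procr -0.48 without experiment 3, Procr -0.02 to 0.36 without single arrays, and F2r 0.10 without experiment 4. In unsorted DCs, F2rl2 was 0.00 (centred), 0.01 (quantile), 0.01 without experiment 1 and -0.10 to 0.11 without single arrays, and Thbd -0.04 without experiment 3 and -0.01 to 0.10 without single arrays.

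Array numbers were not used as pairs in the main fit. In experiments 2, 3 and 4, deviations of arrays with the same number correlated between -0.25 and 0.40. Experiment 1 was not examined in this way, and there S1pr1 differed by array number in both treatments. It was at 8.60 and 8.68 (untreated) and 9.04 and 8.81 (sTM) on arrays 1 and 2. On arrays 3 and 4 it was at 7.88 and 7.90 (untreated) and 8.01 and 7.86 (sTM). With a replicate block by experiment and array number, F2rl2 in untreated cultures lost its call (0.78, adjusted p = 0.0839 by limma), S1pr1 for sTM in TM- DCs was 0.00, and no other call of the 7 genes changed. In unsorted DCs the limma adjusted p for sTM moved from 0.907 to 0.117 for Procr and from 0.999 to 0.311 for S1pr3.

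Over all genes, the 7438 calls between the fractions became 2469 without experiment 4 and 12088 with array weights, fell to 2655 higher and 2172 lower with no experiment term and came to 2941 higher and 9040 lower when centred. Those in untreated cultures ranged from 1315 to 9922, in sTM-treated cultures from 1904 to 7500, for sTM in TM+ DCs from 19 to 1233, over both fractions from 2 to 1840, in TM- DCs from 0 to 631, for the interaction from 1 to 341 and in unsorted DCs from 0 to 5. The share called higher in untreated cultures was 62.4% and 40.2% when centred, and in sTM-treated cultures 48.2% and 31.4%. Thbd lay in the range of low signal on most arrays, which limits what can be seen of it.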
